A study of Mus musculus with 12 samples.

Results

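The ileum of POR-null mice was compared with the ileum of wild-type mice while both ate the control diet. The comparison took 6 of the 12 arrays of the series, the 3 titled POR-null minus the 3 titled wild type, chosen by their titles alone. POR stands for cytochrome P450 reductase. All mice were male, labelled as C57BL/6, and aged 6 to 8 weeks. They had eaten a soya-free powdered RM3 diet for 14 days and stayed on it for the last 24 h without added quercetin. Each array held RNA pooled from 3 mice, with other mice in each pool, taken from the scraped epithelial layer of the last of 3 equal lengths of the small intestine. The remaining 6 arrays came from both genotypes after 24 h with quercetin, a plant flavonol, at 6.2 g per kg of diet (7 mg per mouse), and served here as a second pair of groups. The labels name neither the allele nor the tissue in which the reductase was removed. A mouse line known in this field as hepatic reductase-null loses the gene in liver cells only, through a Cre recombinase driven by the albumin promoter; whether these mice are that line is not stated in the sources used here.

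POR sits in the endoplasmic reticulum membrane and passes electrons from NADPH to the microsomal P450 enzymes, to haem oxygenase and to squalene epoxidase. Through them it serves drug oxidation, bile acid formation, haem breakdown and cholesterol synthesis. The ileum takes back bile acids from the gut contents, absorbs vitamin B12, and releases the hormones FGF15 and peptide YY into the blood.

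All values were log2 expression levels, so a difference of 1 is a doubling. The 12 arrays had medians from 5.91 to 5.96. Pairs of control-diet arrays correlated across probe sets with r from 0.9917 to 0.9939 within wild type, 0.9946 to 0.9956 within POR-null and 0.9908 to 0.9947 between the genotypes. The ileal bile acid binding protein gene Fabp6 read 12.22 to 12.76 on the 6 arrays and the brush border protease gene Mep1b 12.59 to 12.89, while the liver gene Alb read 5.50 to 5.81. Por itself had no probe set among those tested, and the genotype labels were therefore not checked against the targeted gene. Wild-type control replicate 2 stood apart: it lay at -25.57 on the first principal component (19.69% of the variance), and the other 11 arrays between -10.80 and 10.56. Its score for 16 proximal small intestine genes (the mean of their levels, each gene centred over the 12 arrays) was 0.79, against -0.42 to 0.24 on the others. For many of the named differences and lists that this array moved, the value without it is also given. A difference given alone includes this array and may depend on it.

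No gene passed the test on the control diet, so every difference that follows is a measured value and not a call. Of 22626 probe sets, 0 (0%) had a limma p adjusted by Benjamini-Hochberg under 0.05, and the smallest adjusted p was 0.119. An unadjusted p under 0.05 was found for 2293 of them (10.1%), and for 2043 (9.03%) without wild-type control replicate 2, where again none passed and the smallest adjusted p was 0.289; over genes, that share was 9.3% without this array and 10% with it. Taking 1 probe set per gene, 5371 of 12393 genes (43.3%) were higher in POR-null and 6969 (56.2%) lower, with a median difference of -0.02. All 3 POR-null arrays lay above all 3 wild-type arrays for 625 genes (5.04%) and below them for 1095 (8.84%). With 3 arrays against 3, an exact two-sided permutation test of a single gene cannot give a p below 0.1. P-values measure the spread between pools, not between mice.

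Most differences were small. Only 123 of the 12393 genes differed by more than 0.5, and 10 by more than 1. The 5 higher by more than 1 were the pericyte and smooth muscle gene Rgs5 (1.78), the contractile genes Myl9 (1.58), Actg2 (1.37) and Myh11 (1.01), and the antiprotease gene Serpina1b (1.02). The 5 lower by more than 1 were Enpp3 (-1.29), Cyp2b10 (-1.15), Fabp1 (-1.12), Retnlb (-1.12) and Lct (-1.05). In all 5 the top level among the 6 arrays belonged to wild-type control replicate 2, and without that array their differences were -0.60, -0.52, -0.26, -0.38 and -0.57. Without it, 7 genes were higher by more than 1 and 0 lower by more than 1. These 10 genes were singled out by size after their values were seen.

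Among genes higher in POR-null, the smallest p belonged to Gas5, a non-coding host gene whose introns carry small nucleolar RNAs. Its levels were 7.81, 7.42 and 7.59 in the 3 wild-type pools and 8.47, 8.30 and 8.61 in the 3 POR-null pools. Every POR-null pool lay above every wild-type pool, by 0.85 ± 0.12 on average (log2 difference, SE, 3 arrays against 3), or 1.81-fold. The other 3 probe sets of Gas5 were also higher, by 0.29 to 0.68. Its adjusted p was 0.119. It was 0.0193 without wild-type control replicate 1 and 0.0418 without POR-null quercetin replicate 2. The latter array enters only through the shared estimate of the spread. With any other array left out Gas5 did not pass, and its difference was 0.76 without wild-type control replicate 2. Each adjusted p under 0.05 given with 1 array left out was picked from 12 removals after the values were seen.

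Lgmn encodes legumain, a lysosomal protease that cuts after asparagine. It read 7.62, 7.67 and 7.41 in wild type against 8.04, 8.46 and 8.52 in POR-null, a difference of 0.77 ± 0.13 with no overlap (1.71-fold). Leaving out POR-null control replicate 1, its lowest null pool, gave 0.92 and an adjusted p of 0.0233. With any other array left out Lgmn did not pass. Glul, glutamine synthetase, was nearly constant in wild type at 6.91, 6.94 and 6.92. In POR-null it was at 7.57, 7.71 and 7.49, higher by 0.67 ± 0.12, and its second probe set was higher by 0.42. Slc25a4, a mitochondrial ADP/ATP carrier, read 8.12, 8.33 and 7.89 against 8.89, 8.64 and 8.86 (0.68 ± 0.14). Of its 4 probe sets the 3 bright ones were higher by 0.58 to 0.69, and the dim one, at a mean level of 3.71, differed by -0.09. Lamb3, the beta chain of the basement membrane laminin of epithelia, read 9.16, 9.26 and 9.00 against 9.66, 9.73 and 9.63 (0.53 ± 0.11).

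The other 7 of the 12 higher genes with the smallest p differed by 0.34 to 0.58. They were the bile acid receptor Nr1h4, the hormone gene Pyy, the ubiquitin-conjugating enzyme Ube2d1 (0.43), the endoplasmic reticulum shaping protein Rtn4 (0.41), the mRNA export subunit Thoc7 (0.40), the lactate and butyrate carrier Slc5a8 (0.39) and Rabggtb (0.34), which helps attach lipids to Rab proteins. Rtn4 and Thoc7 each had a second probe set, at 0.18 and -0.11. The groups did not overlap for any of the 12, and their adjusted p ran from 0.119 to 0.224. Because the groups did not overlap, leaving out an array could not change the direction of any of the 12. Without wild-type control replicate 2 their differences were 0.35 to 0.83, with adjusted p from 0.289 to 0.395.

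Among genes lower in POR-null, Errfi1 had the smallest p. It encodes a feedback inhibitor that binds the EGF receptor and shuts it down. Its levels were 9.11, 8.61 and 8.49 in wild type against 7.96, 8.02 and 7.62 in POR-null, a difference of -0.87 ± 0.16, or 1.83-fold lower, and the groups did not overlap. Its second probe set was lower by 0.52. Plpp3, a membrane phosphatase that acts on lysophosphatidic acid and related lipids, read 7.21, 7.53 and 7.72 against 6.85, 6.89 and 6.93. The POR-null pools were close together and all below wild type, by 0.60 ± 0.11 and, on the second probe set, by 0.60 ± 0.13. Without wild-type control replicate 1 its difference was -0.73, with an adjusted p of 0.0193. Plpp3 did not pass with any other array left out, and was at -0.57 without wild-type control replicate 2. Gpx2, the glutathione peroxidase of the gut lining, read 11.35, 11.73 and 11.24 against 10.47, 10.74 and 10.78 (-0.78 ± 0.15). Anxa4, a calcium-dependent phospholipid binding protein, read 11.80, 11.74 and 11.57 against 11.23, 11.31 and 11.03 (-0.51 ± 0.11).

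The interferon-induced genes Oasl2 and Oasl1 were both among the 12 lower genes with the smallest p. Oasl2 read 8.08, 8.80 and 8.26 in wild type against 7.60, 7.68 and 7.34 in POR-null (-0.84 ± 0.18). Oasl1 read 9.24, 9.66 and 9.55 against 9.16, 8.83 and 8.76 (-0.57 ± 0.13), and its nearest pools, at 9.24 and 9.16, were close. The other 6 were Mapkbp1, a partner of JNK kinases (-0.60), Ppp1r15a, which leads phosphatase 1 to the translation factor eIF2 (-0.49), guanine deaminase Gda (-0.47), the secreted protein Fam3b (-0.39), Magea6 (-0.37) and the interleukin 7 receptor chain Il7r (-0.32). Magea6 lay at 3.70 to 4.27 and Il7r at 4.85 to 5.24, low on the scale of these arrays, whose values ran from 2.66 to 14.04. None of the 12 overlapped between the groups, and their adjusted p ran from 0.209 to 0.266. Here too, leaving out an array could not change a direction. Without wild-type control replicate 2 the 12 were at -0.31 to -0.93, with adjusted p from 0.289 to 0.428.

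**Figure D1:**
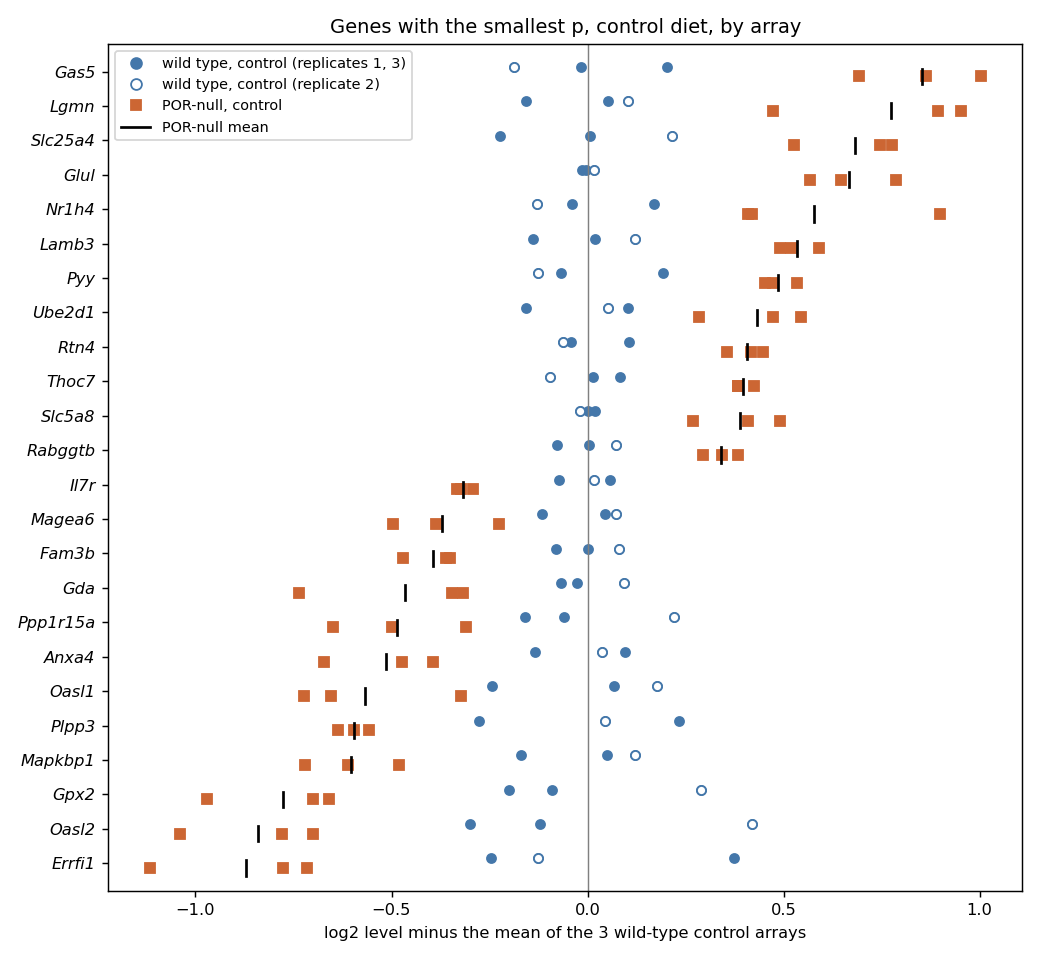
Levels of the 12 higher and 12 lower genes with the smallest p, shown per array as log2 level minus the mean of the 3 wild-type control arrays, for wild type (circles; replicate 2 open) and POR-null (squares) on the control diet. Bars mark the POR-null mean. No POR-null square lies within the wild-type range of its gene, from Gas5 at 0.85 to Errfi1 at -0.87.

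Some genes had larger differences among those whose groups did not overlap, but with more spread. Serpina1b, an alpha-1-antitrypsin, read 7.56, 6.21 and 6.38 in wild type against 7.58, 7.81 and 7.81 in POR-null (1.02 ± 0.33). Wild-type replicate 1 was nearly level with the lowest null pool, so the difference rests on the other 2 wild-type pools. Both of its probe sets are of a kind (the suffix _x_at) that may bind other members of the gene family. Ugt2b5, a glucuronosyltransferase, read 5.75, 4.89 and 5.38 against 6.04, 6.09 and 6.12 (0.74 ± 0.17). Leaving out wild-type control replicate 1 gave 0.95 and an adjusted p of 0.0415. Without wild-type control replicate 2 it was at 0.52, and it passed with no other array left out. The amino acid carrier Slc6a14 read 5.76, 6.16 and 5.85 against 6.60, 6.78 and 7.04 (0.88 ± 0.36). The acute phase gene Saa1 read 9.61, 9.75 and 9.74 against 10.03, 11.12 and 10.22 (0.76 ± 0.47), with 1 null pool far above the rest.

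Among the largest lower values, Bco2, which cleaves carotenoids, read 7.39, 8.07 and 8.14 in wild type against 6.80, 7.06 and 6.83 in POR-null (-0.97 ± 0.25). Ifrd1, a transcriptional co-regulator, read 8.79, 9.39 and 8.83 against 8.34, 8.20 and 7.94 (-0.84 ± 0.24). Both kept most of the difference without wild-type control replicate 2, at -0.87 and -0.65. Enpp3, an ectonucleotidase, read 7.21, 9.49 and 7.65 against 6.77, 7.09 and 6.63, and Lct, lactase, 9.02, 10.16 and 8.46 against 7.87, 8.36 and 8.27. Retnlb, a goblet cell product, read 5.16, 7.55 and 5.54 against 5.0, 4.99 and 4.91. In each of these 3 genes replicate 2 was far above the other wild-type pools. The 5 probe sets of Enpp3 differed by -0.11 to -2.06.

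The same genotype difference was measured on the quercetin diet, in the other 6 arrays, which entered the control-diet test through the shared estimate of the spread alone. There too no probe set passed, 1585 of 22626 (7.01%) had an unadjusted p under 0.05, and the groups did not overlap for 1604 of 12393 genes (12.9%). The sign of the difference was the same on both diets for 5232 genes (42.2%), and for 527 of the 1243 genes (10%) with an unadjusted p under 0.05 on control, or 42.4%. Across genes the differences on the 2 diets had a Pearson r of -0.016 and a Spearman rho of -0.13; genes of one array are not independent of each other. Of the 1720 genes (13.9%) without overlap on control, 81 also lacked overlap in the same direction on quercetin and 131 in the opposite direction. The interaction term, which tests whether the genotype difference depends on diet, passed for 0 probe sets (smallest adjusted p 0.0917), and 2332 (10.3%) had an unadjusted p under 0.05.

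Of the 24 genes with the smallest p, 12 had the same sign on quercetin. The interaction term had an unadjusted p under 0.05 for 7 higher and 8 lower ones, beside 1379 of all 12393 genes. It had one for 579 of the 1243 genes with an unadjusted p under 0.05 on control. The interaction term contains the control difference by which these genes were picked. These counts therefore cannot show whether the genotype difference depends on diet. An unadjusted p under 0.05 on quercetin with the same sign was found for 378 of the 12393 genes. Of the 1243 genes with an unadjusted p under 0.05 on control, 61 had it. Of the 24 genes, 7 had it. They were Lamb3 (0.56 ± 0.11, against 0.53 on control), Lgmn (0.41 ± 0.13), Glul (0.36 ± 0.12) and Slc5a8 (0.16 ± 0.08) among the higher genes, and Errfi1 (-0.39 ± 0.16), Anxa4 (-0.36 ± 0.11) and Plpp3 (-0.28 ± 0.11) among the lower. Lamb3 stood out for its even difference: its quercetin means were 9.08 for wild type and 9.64 for POR-null, close to the control levels, and the groups did not overlap on either diet. Bco2 was also as far apart on quercetin, with means of 7.77 and 6.77 (SE of the difference 0.25), though its pools overlapped there. Gas5 went the other way, at 8.83, 8.72 and 8.80 in wild type on quercetin and 8.36, 8.72 and 8.35 in POR-null (-0.31 ± 0.12). Its 3 wild-type control pools were the lowest of the 12 arrays. Rtn4 was likewise at -0.20 ± 0.08 on quercetin.

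**Figure D2:**
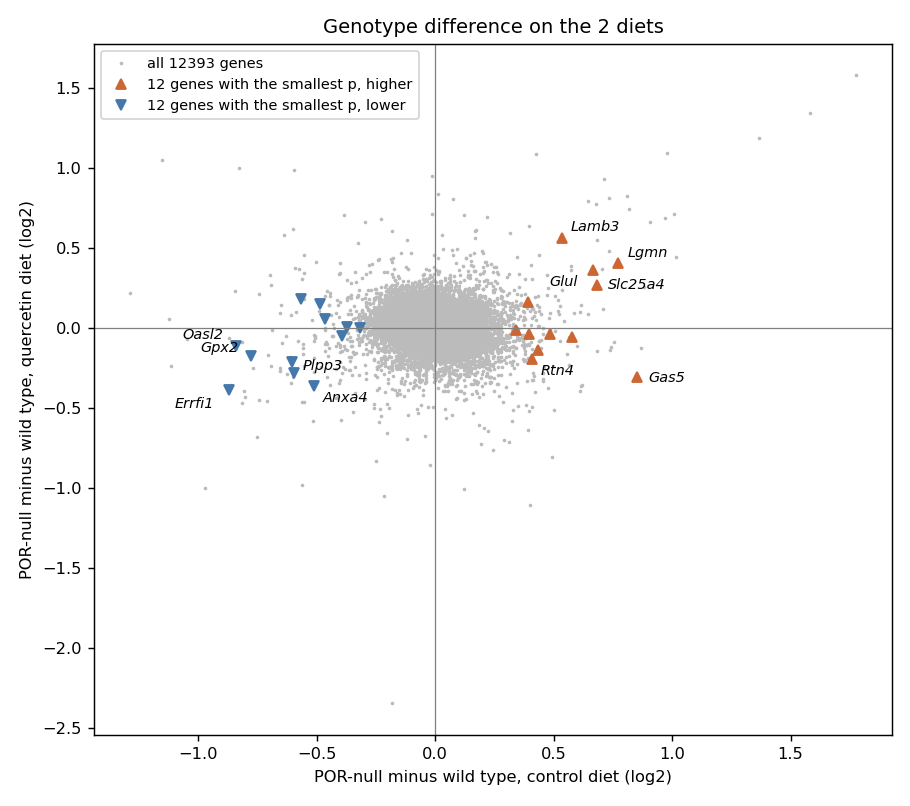
Genotype difference of each gene (POR-null minus wild type, log2) on the control diet (x axis) and the quercetin diet (y axis), for all 12393 genes (dots) and the 12 higher and 12 lower genes with the smallest p on control (triangles). The cloud has no slope (Pearson r -0.016); Lamb3, Lgmn and Glul lie in the upper right, Errfi1, Anxa4 and Plpp3 in the lower left, and Gas5 in the lower right.

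Gene lists were described by their counts, read against the background of all genes: 4.09% of the 12393 had an unadjusted p under 0.05 and were higher in POR-null, and 5.94% were lower. The median of all genes was -0.02 on control, -0.02 without wild-type control replicate 2 and 0.02 on quercetin.

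Bile acid and ileal genes came first because they mark this segment. Of 10 genes of the ileal segment, 6 were higher and 4 lower (median 0.03; 0.05 without wild-type control replicate 2), and 3 were higher with an unadjusted p under 0.05. Nr1h4 encodes FXR, the nuclear receptor that senses bile acids. It read 8.22, 7.92 and 8.01 in wild type against 8.95, 8.46 and 8.47 in POR-null, higher by 0.58 ± 0.12 with no overlap. Pyy, the gut hormone made by L cells, read 8.59, 8.27 and 8.33 against 8.87, 8.93 and 8.85 (0.49 ± 0.10). Without wild-type control replicate 1 it was at 0.58 with an adjusted p of 0.0496. With any other array left out Pyy did not pass, and it was at 0.42 without wild-type control replicate 2. Cubn, the receptor for the vitamin B12 carrier, read 11.48, 11.69 and 11.43 against 11.74, 11.93 and 12.06 (0.38 ± 0.10). All 3 were near or below 0 on quercetin, at -0.06, -0.04 and -0.12.

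Fabp6, an FXR target, was at 12.76, 12.33 and 12.48 in wild type against 12.22, 12.27 and 12.47 in POR-null, a difference of -0.20 ± 0.12 with overlap. Fgf15, the ileal hormone under FXR control, was even among the wild-type pools (6.64, 6.63 and 6.63) but scattered among the POR-null pools (5.31, 7.20 and 6.85). Slc10a2, the apical bile acid transporter, was at 5.22 in wild-type replicate 2 and at 6.69 to 7.05 on the other 5 arrays. Without POR-null control replicate 1 the list median was 0.29. In the wider list of 16 bile acid genes, 7 were higher and 9 lower (median -0.07), and 8 higher with a median of -0.03 without wild-type control replicate 2. The basolateral pump Abcc3 was higher by 0.21 ± 0.11 and the liver export pump Abcb11, low at 4.63 to 5.12, lower by 0.26 ± 0.09.

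The enzymes that take electrons from POR, with their haem synthesis and cytochrome b5 partners, showed no common direction. Of 25 measured, 12 were higher and 13 lower (median -0.01; 0.02 without wild-type control replicate 2), and 3 had an unadjusted p under 0.05. Alas1, the rate-limiting enzyme of haem synthesis, read 8.64, 8.90 and 8.87 in wild type against 8.55, 8.49 and 8.45 in POR-null (-0.31 ± 0.10), without overlap, though the nearest pools were close. A second probe set of Alas1, at a mean level of 7.275, was at -0.12 with overlap. It was at -0.04 without wild-type control replicate 2. Biliverdin reductase Blvra (0.21 ± 0.08) and the haem synthesis enzyme Urod (0.20 ± 0.08) were higher without overlap. Cyb5r3, the reductase of cytochrome b5, was at -0.24 ± 0.11, and at -0.09 without wild-type control replicate 2.

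Among 45 genes of P450 families 1 to 4, which oxidise drugs, steroids and fatty acids, 35 were lower and 10 higher (median -0.10). Only 3 of the lower and 2 of the higher had an unadjusted p under 0.05. Wild-type control replicate 2 had the highest level of the 6 arrays for 21 of the 45; its part in the result was not tested, and without it 32 were lower, with a median of -0.07. Cyp3a25, a drug-oxidising P450, was the clearest exception. It read 8.66, 9.21 and 8.51 in wild type against 9.57, 9.29 and 9.72 in POR-null (0.73 ± 0.17). It was also higher on quercetin, by 0.48 ± 0.17, with no overlap on either diet. Cyp4f16, of a family that hydroxylates fatty acids, read 9.29, 9.47 and 9.65 against 10.18, 9.57 and 10.03 (0.46 ± 0.14), and its paralogue Cyp4f15 was at -0.15 ± 0.06. A second probe set of Cyp4f16 was at -0.07. Cyp1a1, the classic target of the aryl hydrocarbon receptor, read 5.93, 6.70 and 6.21 against 5.93, 5.75 and 5.77 (-0.46 ± 0.15, and -0.25 without replicate 2). Of 14 P450s of other families, 11 were lower, at most by 0.17, and none had an unadjusted p under 0.05. Paralogues of P450 and conjugating enzyme families are alike in sequence, and how far these probe sets tell them apart was not tested.

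Genes of fat absorption were mostly lower. Of 29 genes of fat uptake and triglyceride synthesis, 23 were lower and 6 higher (median -0.12), and 5 were lower with an unadjusted p under 0.05, all without overlap. Besides Plpp3 they included Cd36, a fatty acid uptake protein low in ileum (4.30, 4.85 and 4.02 against 3.95, 3.68 and 3.87). Its difference was -0.56 ± 0.16, and its other 2 probe sets were at -0.29 and -0.06; without wild-type control replicate 2 the 3 were at -0.33, -0.03 and -0.02. Plin3, a lipid droplet coat protein, was at -0.19 ± 0.07, and Mogat2, which rebuilds fat from absorbed monoglyceride, at -0.18 ± 0.07. Wild-type control replicate 2 had the highest level for 15 of the 29. Without it 20 were lower and the median was -0.09, and on quercetin it was -0.02.

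Of 17 LXR target and lipoprotein genes, 9 were higher and 8 lower (median 0.03). An unadjusted p under 0.05 was found for 2 higher and 3 lower genes, and for 2 genes in all without wild-type control replicate 2. The 3 lower encode apolipoproteins of the chylomicron, the particle in which the enterocyte exports fat. Apoc3 read 10.58, 11.36 and 10.58 in wild type against 10.01, 10.22 and 9.85 in POR-null (-0.81 ± 0.23). Apob, the structural protein of the particle, read 11.29, 11.03 and 11.13 against 10.67, 10.36 and 10.47 (-0.65 ± 0.24). Apoa4 read 12.10, 12.85 and 12.26 against 11.90, 11.97 and 11.66 (-0.56 ± 0.20). The groups did not overlap in any of the 3. Without wild-type control replicate 2 they were at -0.55, -0.71 and -0.34, and on quercetin at -0.09, 0.14 and 0.30. Apoe, by contrast, was at 0.38 ± 0.16 on control and at -0.48 ± 0.16 on quercetin.

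Cholesterol synthesis and uptake genes gave 14 of 22 higher (median 0.06; 0.28 on quercetin), and 16 higher with a median of 0.11 without wild-type control replicate 2. The kinase Pmvk, of the mevalonate pathway, was higher by 0.31 ± 0.09 on control and 0.33 ± 0.09 on quercetin, without overlap on either diet. Scap, the sterol sensor that escorts SREBP, was higher by 0.27 ± 0.08, and the late synthesis enzyme Tm7sf2 lower by 0.26 ± 0.10, though at -0.12 without wild-type control replicate 2. Insig2, which holds SREBP back, was lower by 0.24 ± 0.09. Of 17 fatty acid synthesis genes 13 were higher (median 0.14), with the desaturase Fads2 at 0.39 ± 0.12, the elongase Elovl5 at 0.29 ± 0.13 and malic enzyme Me1 at -0.69 ± 0.31. Me1 read 9.03 in wild-type control replicate 2 and 7.27 to 7.81 elsewhere. Without that replicate Me1 was at -0.21, Elovl5 at 0.15 and Fads2 at 0.28. Of 29 fatty acid oxidation genes 21 were higher (median 0.07), but on quercetin 21 were lower. The mitochondrial dehydrogenases Acadl and Acadm had opposite signs. Acadl read 10.25, 10.13 and 9.96 against 9.63, 9.80 and 9.35 (-0.52 ± 0.12), and was at -0.35 ± 0.12 without overlap on quercetin too. Acadm was at 0.29 ± 0.12.

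Nutrient transporters had the largest share of small p-values among the pathway lists of over 20 genes. Of 25, 16 were higher and 9 lower (median 0.15), 6 were higher and 2 lower with an unadjusted p under 0.05, and the groups did not overlap for 7 higher and 1 lower. The sign was the same on both diets for 19 of them. Slc5a8, which takes up lactate and short-chain fatty acids, read 9.18, 9.14 and 9.16 in wild type against 9.43, 9.57 and 9.65 in POR-null. The sulphate carrier Slc13a1 read 10.86, 10.58 and 10.60 against 11.21, 11.21 and 10.94, higher by 0.44 ± 0.12 on control and 0.45 ± 0.12 on quercetin, without overlap on either diet. The proline carrier Slc6a20a was higher by 0.41 ± 0.12. Slc23a1, a vitamin C carrier, was lower by 0.46 ± 0.14 on control without overlap (-0.29 without wild-type control replicate 2), and stood at 0.23 ± 0.14 on quercetin. Without wild-type control replicate 2 the list had 19 higher, 10 with an unadjusted p under 0.05 and a median of 0.17; the median was 0.05 without wild-type control replicate 1, 0.10 without wild-type control replicate 3, 0.10 without POR-null control replicate 1, and 0.08 without POR-null control replicate 2.

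Of 28 genes of gluconeogenesis, glycolysis and glutamine, 13 were higher and 15 lower (17 higher without wild-type control replicate 2), yet 8 had an unadjusted p under 0.05, of which 5 were higher. After Glul came Pklr, pyruvate kinase, at 8.55, 9.02 and 8.80 against 9.29, 9.37 and 9.12 (0.47 ± 0.12). Fbp1 read 7.81, 7.70 and 7.42 against 7.79, 8.28 and 8.11 (0.42 ± 0.13), and was at -0.30 ± 0.13 on quercetin. G6pc, which frees glucose from its phosphate, read 7.61, 7.50 and 6.92 against 7.71, 7.74 and 7.95 (0.46 ± 0.15), and its difference on quercetin was 0.00. Enzymes of glycolysis and of gluconeogenesis were both among the higher genes.

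Of 49 antioxidant and glutathione genes, 32 were lower and 17 higher (median -0.04), beside 56.2% lower among all genes; 7 were lower and 1 higher with an unadjusted p under 0.05. Gpx2 led them. Gstm3 read 8.82, 9.44 and 8.90 in wild type against 8.69, 8.35 and 8.38 in POR-null (-0.58 ± 0.18), and Gstk1 7.41, 8.36 and 7.86 against 6.93, 7.44 and 7.01 (-0.75 ± 0.24). Both conjugate glutathione. Gstk1 was also lower on quercetin, by 0.68 ± 0.24, without overlap there. Catalase, Cat, was the 1 higher, at 0.40 ± 0.17. Wild-type control replicate 2 had the highest level for 19 of the 49, and without it 29 were lower, 3 had an unadjusted p under 0.05 (9.3% of all genes there) and the median was -0.01. Gstm3 was at -0.39 and Gstk1 at -0.51 without it. Conjugation enzymes were split 12 to 12. The carboxylesterase Ces2a was at 0.32 ± 0.13 on control and -0.58 ± 0.13 on quercetin, Ugt2b1 at -0.21 ± 0.08 and the nicotinamide methyltransferase Nnmt at -0.23 ± 0.09 (-0.14 without that replicate).

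Genes of EGF receptor signalling were read together with Errfi1, which counts among them and was named for its small p. Of 29, 19 were lower and 10 higher (median -0.04), and 5 were lower and none higher with an unadjusted p under 0.05. Dusp6, a phosphatase that ERK induces and that switches ERK off, read 8.72, 8.48 and 8.15 against 8.03, 7.74 and 7.91 (-0.56 ± 0.17). The ligand Btc was at -0.22 ± 0.08 and the ubiquitin ligase Cbl, which clears the receptor, at -0.25 ± 0.10, both without overlap. Without wild-type control replicate 2 the list median was -0.08. Of 25 immediate early genes, which growth factor signals switch on, 17 were lower, with Fosl1 at -0.25 ± 0.07 and Fosb at -0.37 ± 0.13, while Jund was at 0.20 ± 0.08; without that replicate 13 were higher. Interferon response genes were mixed (10 of 25 higher, median -0.02; -0.05 without that replicate). Beside Oasl2, Usp18, which damps interferon signalling, read 7.55, 7.58 and 7.09 against 7.04, 6.74 and 6.21 (-0.74 ± 0.27).

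Lysosomal genes were listed around Lgmn, which counts among them and was named for its small p. Of 27, 17 were higher and 10 lower (median 0.08; 0.11 without wild-type control replicate 2), and 5 were higher and none lower with an unadjusted p under 0.05. Cst6, an inhibitor of legumain, read 8.05, 8.23 and 8.28 against 8.57, 8.72 and 8.59 (0.44 ± 0.09). Lamp2, a lysosomal membrane protein, was at 9.73 in each POR-null pool and 9.41 to 9.55 in wild type (0.25 ± 0.10), and the glycogen-degrading Gaa was at 0.19 ± 0.07. Other probe sets of Lamp2 were at 0.48 without overlap, and at 0.17 and 0.04 with overlap. On quercetin the list median was 0.01. Of 18 small nucleolar RNA host genes, 17 were higher (median 0.11), but Gas5 alone had an unadjusted p under 0.05. Wild-type control replicate 2 had the lowest level for 12 of the 18; without it 12 were higher and the median was 0.04. On quercetin 13 were lower.

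Vitamin and iron genes held a few separate values. In the retinoid and carotenoid list (8 of 23 higher, 12 without wild-type control replicate 2), Aldh1a7 read 8.41, 8.56 and 8.46 against 7.34, 8.06 and 7.90 (-0.71 ± 0.17). It was at -0.46 ± 0.17 without overlap on quercetin, the same sign as Bco2. The retinol carrier Rbp4 was higher by 0.34 ± 0.09. In the iron and vitamin B12 list (8 of 14 higher), Slc40a1, the iron exporter, was at 0.61 ± 0.26 on control and -0.40 ± 0.26 on quercetin. Its control difference was 0.42 without wild-type control replicate 2. Mmut, the mutase that uses vitamin B12, read 8.26, 8.29 and 8.29 against 8.00, 8.06 and 8.03 (-0.25 ± 0.08). Its other probe sets, at mean levels of 7.52 and 3.93, were at -0.03 and -0.03.

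**Figure D3:**
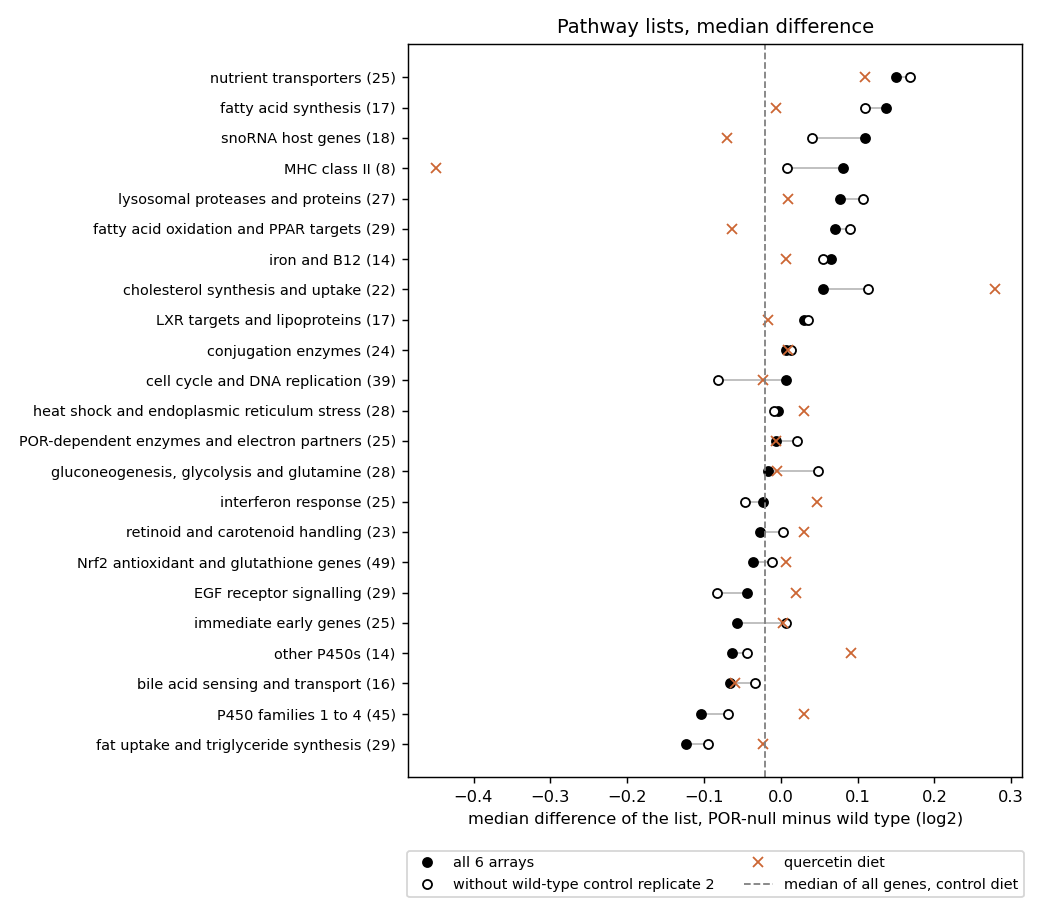
Median genotype difference (POR-null minus wild type, log2) of each pathway list, with the number of genes in brackets, on the control diet with all 6 arrays (filled), without wild-type control replicate 2 (open) and on the quercetin diet (crosses). The dashed line is the median of all genes on control, -0.02. Nutrient transporters lie at 0.15 and fat uptake genes at -0.12, and most crosses lie away from the filled points.

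Smooth muscle genes had the widest differences and the widest spread. They encode the contractile proteins of the muscle layers and of vessel walls, which lie beneath the epithelium that was scraped. Of 19 measured, 18 were higher in POR-null (median 0.54), but the groups overlapped for all 19, and 7 had an unadjusted p under 0.05. Myl9, a myosin light chain, read 4.80, 6.05 and 6.12 in wild type against 8.43, 5.64 and 7.64 in POR-null (1.58 ± 0.63). Csrp1 read 5.60, 5.54 and 5.93 against 7.33, 5.82 and 6.64 (0.91 ± 0.31), Pdlim3 was at 0.54 ± 0.19 and the myosin kinase Mylk at 0.36 ± 0.16. POR-null replicate 1 was the highest of the 6 arrays for 17 of the 19 genes. POR-null replicate 2 exceeded the wild-type mean for only 3 of them.

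The score of the smooth muscle list was -0.58, -0.20 and -0.16 in wild type against 0.88, -0.45 and 0.44 in POR-null, so 2 null pools were high and 1 lay within the wild-type range. In bulk RNA, fewer cells of a type and less RNA per cell cannot be told apart. Without POR-null control replicate 1 the median was 0.29, and without POR-null control replicate 2 it was 0.77. On quercetin 18 of 19 were again higher, with a median of 0.41, and scores of -0.42, 0.24 and -0.61 against 0.25, 0.55 and 0.05. Matrix and fibroblast genes followed less: 12 of 20 were higher (median 0.14, and 0.08 without wild-type control replicate 2), and POR-null replicate 1 was highest for 14. Col3a1 was at 0.54 ± 0.25 and Col5a1 at -0.21 ± 0.07. A second probe set of Col3a1, at a mean level of 3.685, was at -0.14 without overlap. Fibroblast scores ran from -0.13 to -0.01 in wild type, against from -0.22 to 0.25 in POR-null. What part the content of muscle and matrix RNA had in the other differences was not tested.

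**Figure D4:**
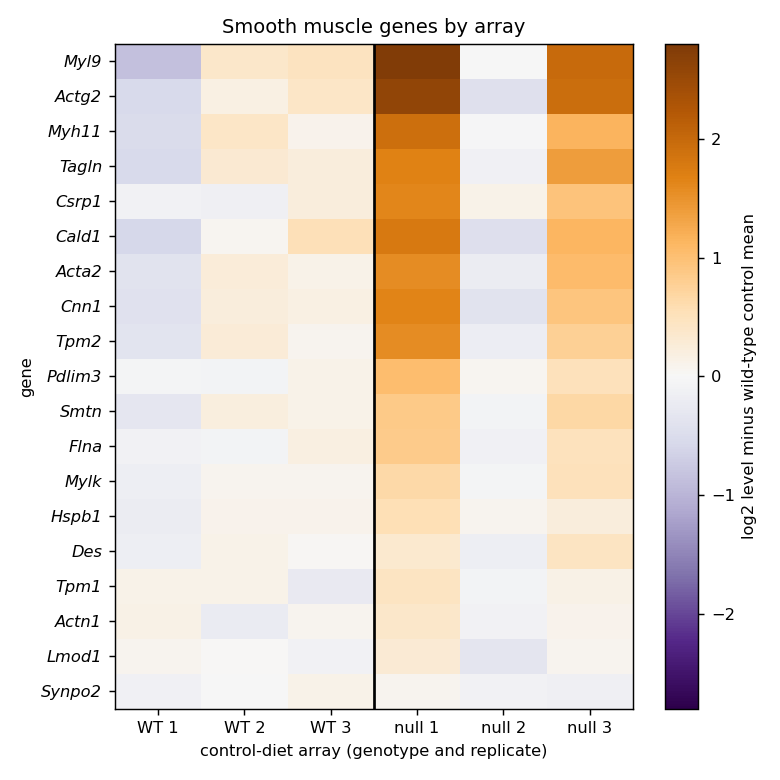
Level of 19 smooth muscle genes on the 6 control-diet arrays, as log2 level minus the wild-type control mean (colour scale), with wild type to the left and POR-null to the right of the line. Columns null 1 and null 3 are high, and null 2 resembles wild type, exceeding its mean for 3 of the 19 genes.

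Smooth muscle genes are known targets of serum response factor, which binds a motif called the CArG box. The motif (its consensus on both strands) was looked for in the window from 250 bases before to 50 bases after each start site in RefSeq, build GRCm38.p6. Only exact matches to its 10 letters were counted: CC, then A or T at every middle position, then GG. A stretch that differed by 1 letter, such as those in the window of the actin gene Acta2, was not counted. A window without a match may therefore still hold a CArG box. A window was listed for 16 of the 19 genes, and 1 of them (6.25%), Myl9, held an exact match. Of all 32851 promoter windows 535 (1.63%) held it, and of 27025 genes 488 (1.81%). The window of Myl9, the listed member with the largest difference, is shown with the box in capitals, beginning at -161 from the start site on the plus strand (chr2:156775214-156775513).
Myl9: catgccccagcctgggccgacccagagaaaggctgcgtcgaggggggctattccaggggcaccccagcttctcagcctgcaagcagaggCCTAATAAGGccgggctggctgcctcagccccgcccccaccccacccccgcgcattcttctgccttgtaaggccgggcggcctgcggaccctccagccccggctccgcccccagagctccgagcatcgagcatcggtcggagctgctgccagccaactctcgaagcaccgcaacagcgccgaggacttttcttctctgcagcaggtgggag
A match to the letters is a description and not a measured binding site.

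Other cell type lists gave smaller values. All 12 mast cell genes were lower (median -0.18; -0.21 without wild-type control replicate 2), 6 of them without overlap and with an unadjusted p under 0.05. Gata2, a transcription factor of mast cells, read 6.87, 6.60 and 6.67 against 6.52, 6.31 and 6.42 (-0.30 ± 0.10). The histidine decarboxylase Hdc (-0.20 ± 0.08), carboxypeptidase Cpa3 (-0.20 ± 0.07) and IgE receptor chain Fcer1a (-0.22 ± 0.08) were lower too. Mean levels of the 12 genes ran from 3.88 (Fcer1a) to 6.55 (Gata2), on arrays whose values ran from 2.66 to 14.04. Second probe sets of Gata2 and Hdc, dim at mean levels of 3.80 and 3.83, were at -0.04 and -0.003. The scores were 0.07, 0.01 and 0.12 in wild type against -0.09, -0.12 and -0.11 in POR-null, and on quercetin 10 of the 12 were higher.

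All 9 goblet cell genes were lower (median -0.09, and -0.14 without wild-type control replicate 2, with 8 lower). Spink4 read 11.03, 11.59 and 11.42 against 10.99, 10.77 and 10.72 (-0.52 ± 0.16), and the mucus peptide Tff3 13.34, 13.32 and 13.28 against 13.21, 13.13 and 13.17 (-0.14 ± 0.07). Goblet scores did not overlap, at 0.06 to 0.27 for wild type against -0.13 to -0.06 for POR-null. All 6 tuft cell genes were lower, but wild-type control replicate 2 was highest for 5 of them, with a score of 0.67, and without it the median went from -0.31 to -0.06. The Paneth cell list had that replicate lowest for 5 of 7 genes (score -0.54). Its antimicrobial lectins were at 0.53 ± 0.17 (Reg3a), 0.27 ± 0.12 (Reg3g) and 0.15 ± 0.08 (Reg3b), and its median went from 0.27 to -0.03 without the replicate. A second probe set of Reg3b was at -0.05. Proximal small intestine genes were lower for 14 of 16 (median -0.45), and replicate 2 was highest for 14; without it the median was -0.23. Among them Creb3l3, a transcription factor of lipid metabolism, read 10.58, 10.82 and 10.27 against 10.16, 10.12 and 10.21 (-0.39 ± 0.11; -0.26 without it).

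Enteroendocrine genes were 8 of 14 higher, with the granule protein Chgb at 7.13, 6.84 and 6.33 against 7.18, 7.31 and 7.36 (0.52 ± 0.16). B cell genes were 9 of 13 higher (7 without wild-type control replicate 2), and Cd79b, a B cell receptor chain, read 6.75, 6.83 and 7.15 against 7.45, 7.18 and 7.58 (0.49 ± 0.13). On quercetin it was at -0.81 ± 0.13. The T cell receptor chain Cd3g was at 0.62 ± 0.24 without overlap, and 9 of 14 T and intraepithelial lymphocyte genes were higher. Endothelial genes were 8 of 11 lower, with Flt1 at -0.23 ± 0.08 and Tek at -0.22 ± 0.07 (10 of 11 without wild-type control replicate 2). On quercetin 8 of the 11 were higher, with a median of 0.03. Liver genes were 6 of 9 lower and pancreas genes 8 of 9 lower, none by more than 0.20.

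**Figure D5:**
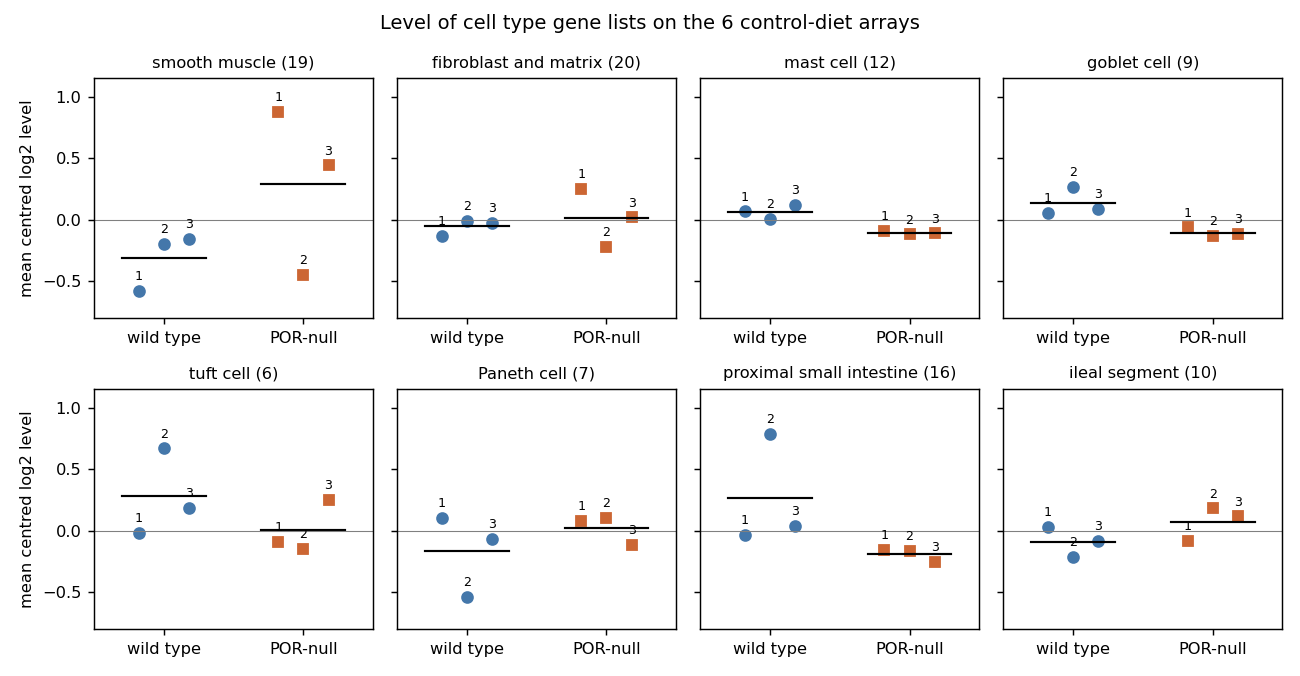
Score of 8 cell type and segment lists on each control-diet array (mean of centred log2 levels; number of genes in brackets), for wild type (circles) and POR-null (squares), numbered by replicate, with the group mean as a line. Smooth muscle shows 1 null pool at 0.88 and 1 at -0.45, mast and goblet cell scores do not overlap between the groups, and wild-type replicate 2 stands alone for tuft, Paneth and proximal genes.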

How the data were processed

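RNA from scraped ileal epithelium was hybridised to 12 Affymetrix 430A arrays (4 groups of 3; a pool of 3 mice each). The values the authors deposited are log2 expression levels. MAS5 and RMA are named in the submitters' processing notes, without saying which of them made these values. They were used as deposited.

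Of 22690 probe sets, 64 array controls (names starting AFFX) were left out and 22626 tested. The platform annotation gave 1 symbol to 20380, several to 691 and none to 1555, and 20351 matched a gene ID in the RefSeq table of GRCm38.p6. The probe set with the highest mean over all arrays stood for each of 12393 genes. Limma 3.58.1 in R 4.3.3 (lmFit, eBayes, 8 residual and 5.59 prior degrees of freedom) fitted a mean per group to all 12 arrays, so the groups share 1 estimate of the spread. Benjamini-Hochberg adjustment covered every tested probe set, and the threshold was an adjusted p of 0.05. The median SE was 0.0886 on the log2 scale; the number of arrays limits the precision, and arrays give no counts from which a depth could be read.

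Named were the 12 genes with the smallest p in each direction, with predicted and unnamed genes left out. The 6 with the largest difference in each direction among genes without overlap were added, and up to 4 members with the smallest p of each list, plus genes that check the tissue. A gene outside this rule was named after its values were seen. The 44 lists held 907 names, of which 764 were measured. The comparison, its members and these lists were chosen with earlier results of these data known. Scripts were tested on simulated data. Figures used Python 3.11.15, pandas 2.3.3 and matplotlib 3.10.9. Alternatives covered normalization, centring, dim probe sets, shrinkage, weights per array, a replicate block, the 6 arrays alone, the mean over a gene's probe sets, other thresholds and each array left out.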

Additional observations from a re-analysis of the deposited data

Results flagged for a closer look

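For the genes below, every POR-null pool lay on one side of every wild-type pool on the control diet and on the other side on the quercetin diet. The difference between the diets was tested with limma's interaction term, and none passed. The change of the genotype difference from control to quercetin was -1.30 for Cd79b (adjusted p = 0.0917), -0.57 for Ube2d1 (0.261), -0.41 for Gaa (0.304), 0.64 for Ppp1r15a (0.342), 0.34 for Plin3 (0.351), 0.36 for Fosl1 (0.351) and 0.29 for Fcer1a (0.446). On control, Cd79b, Ube2d1 and Gaa were higher in POR-null and the other 4 lower. Of the 1720 genes without overlap on control, 131 had such an opposite separation and 81 a separation in the same direction. Among all 12393 genes, 1604 (12.9%) did not overlap on quercetin. The genes given here were taken from those named in the text because they had this pattern. Second probe sets did not all follow: that of Fosl1 was at 0.08 on control and 0.12 on quercetin, and that of Gaa at -0.01 and 0.09. Fcer1a had a mean level of 3.88, low on the scale of these arrays. Dixon's test for an outlying array within a group was not run on these groups of 3.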

How the results depend on the processing

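The count of probe sets past the threshold was 0 in the main analysis. It was 1 with eBayes using trend and robust (Gas5, adjusted p = 0.0387) and ranged from 0 to 15 when each array was left out in turn. The 15 came without wild-type control replicate 1, 2 without POR-null control replicate 1 (Lgmn and Tfpi), and 1 each without POR-null control replicate 3 (Plagl1) and POR-null quercetin replicate 2 (Gas5). It was 0 under each other alternative, thresholds of 0.1 and 0.01 included. The count at an unadjusted p under 0.05 was 2293, went to 1149 when probe sets below the median level were left out, which tests fewer, and ranged from 1622 to 2984 with each array left out. With the replicate number as a replicate block, 0 passed (smallest adjusted p 0.239) and 2369 had an unadjusted p under 0.05. Deviations of same-numbered wild-type and POR-null control arrays correlated at 0.042, 0.030 and -0.104, so the numbers were not taken as a pairing. Of 119 named genes, 118 kept the direction of their difference under every alternative. For genes whose groups did not overlap, leaving out an array could not change the direction. Fgf15 was at -0.18, and between -0.55 (without POR-null control replicate 2) and 0.39 (without POR-null control replicate 1, its lowest pool) when arrays were left out in turn. Of 923 medians of the 44 lists under alternatives, 913 moved by less than the spread and 10 by more. The number of arrays and the pooling limit what could be called.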

Other observations

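Antigen presentation and cell division were not described above. The 8 measured MHC class II genes, which present peptides to helper T cells, had a median difference of 0.08 on control, with 6 higher and none with an unadjusted p under 0.05; without wild-type control replicate 2, 5 were higher and the median was 0.01. On quercetin all 8 were lower in POR-null, with a median of -0.45. H2-Eb1 read 10.79, 10.24 and 10.43 in wild type against 10.88, 10.82 and 10.24 in POR-null on control (0.16 ± 0.19; 0.04 without that replicate), and was at -0.53 ± 0.19 on quercetin.

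Of 39 cell cycle and DNA replication genes 23 were higher in POR-null on control (median 0.01). Wild-type control replicate 2 had the lowest level of the 6 arrays for 26 of them, and without it 31 were lower (median -0.08). The mitotic checkpoint kinase gene Bub1b read 6.14, 5.76 and 6.12 against 6.52, 6.19 and 6.30 (0.33 ± 0.11), and 0.21 without that array. Of 28 heat shock and endoplasmic reticulum stress genes 14 were higher and 14 lower. The 11 crypt stem and transit cell genes had 7 lower, at most by 0.13.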
